A study of Arabidopsis thaliana with 7 samples.

Results

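The mitochondrial genome was followed through 92 of the 27826 probe sets on the arrays. They are all the probe sets whose identifier begins with ATMG, the prefix for loci of the Arabidopsis thaliana mitochondrial genome. Membership rests on the identifier and on no measured value, though the set was chosen with earlier results of these data known. RNA came from isolated 8-cell embryos, about 40 to 50 pooled per sample, and was hybridised to 7 one-colour arrays. There were 3 arrays of embryos labelled as Bodenlos (IAA12) mutants, called bdl here, and 4 of wild type, both in the Columbia (Col-0) ecotype. BODENLOS is an Aux/IAA repressor of auxin response. The labels name neither the bdl allele nor the zygosity of the embryos, and give no harvest or scan batch. A growth protocol common to both groups includes antibiotic selection for a transgene, and which embryos carried one is not stated. The study's design text counts 3 replicates for each genotype, and all 4 arrays labelled wild type were used. Nothing says that replicates came from separate harvests, so the p-values measure the spread between these samples, which may be technical.

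Plant mitochondria keep a genome of their own, which encodes a minority of the proteins they need. These are subunits of the NADH dehydrogenase (complex I), the cytochrome bc1 complex (complex III), cytochrome c oxidase (complex IV) and the ATP synthase (complex V), together with proteins of cytochrome c maturation, ribosomal proteins, ribosomal RNAs, some transfer RNAs and many reading frames of unknown use. All other subunits are nuclear-encoded and imported, so each of those complexes is assembled from products of both genomes. In the RefSeq gene table of assembly TAIR10.1 the mitochondrial genome has 33 protein-coding entries. Of these, 9 are nad genes of complex I, 1 is cob of complex III, 3 are cox genes of complex IV, 6 are atp genes of complex V, 5 are ccm genes of cytochrome c maturation, 7 are ribosomal protein genes and 2 are matR (a maturase) and mttB (a protein transport gene).

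RefSeq lists these genes under other locus tags, and 0 of the 92 ATMG identifiers could be matched to an entry by tag, old tag or synonym. The loci are therefore named by identifier only, and respiratory and ribosomal genes could not be set apart from unnamed reading frames.

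Most of these loci had signals in the upper part of the array's range. Values are given as log2 signal, the log2 of the deposited intensity. The mean over the 7 arrays ran from 2.87 to 11.4 among the 92 loci, with a median of 7.79, where the median over all probe sets was 3.17. Of the 92, 75 lay above the 75th percentile of all probe sets, 2 below the 50th and 0 below the 25th. Probe sets differ in how well they bind, so these figures describe how far signals stand above the dim end of the array and not how much transcript each locus makes. No detection calls were used here.

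The 3 probe sets with the highest mean were ATMG00160, ATMG01190 and ATMG00360. ATMG00160 had a log2 signal of 11.43, 11.54 and 11.22 in bdl arrays 1 to 3, against 11.53, 11.49, 11.47 and 11.46 in wild-type arrays 1 to 4. ATMG01190 had 11.37, 11.65 and 11.32 in bdl, against 11.25, 11.25, 11.38 and 10.95 in wild type. ATMG00360 had 11.17, 11.22 and 11.14 in bdl, against 11.40, 11.06, 11.08 and 11.06 in wild type. In all 3 the genotypes overlapped, and the widest range over the arrays was 0.70, in ATMG01190.

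The 3 with the lowest mean were ATMG01310, ATMG01040 and ATMG01180. ATMG01310 had 1.95, 3.58 and 3.41 in bdl, against 5.52, 1.92, 1.74 and 2.0 in wild type, so that its lowest and highest array were both wild type. ATMG01040 had 4.08, 2.63 and 2.78 in bdl, against 2.96, 3.38, 3.63 and 2.52 in wild type. ATMG01180 had 4.05, 4.44 and 2.61 in bdl, against 2.71, 3.76, 1.67 and 4.17 in wild type. On every array ATMG01310 had the same value as the nuclear probe set AT2G07691, and ATMG01040 the same as AT2G07664. At this end of the range arrays of one genotype differed by more than the genotype means did.

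A large share of these signals cannot be assigned to the mitochondrial genome alone. Of the 92 loci, 33 had exactly the same value on every array as a nuclear probe set on chromosome 2, with an identifier beginning AT2G07, and 1 of the 33 (ATMG00930) was also identical to a plastid probe set. A further 4 formed 2 pairs with each other, ATMG00080 with ATMG00090 and ATMG00170 with ATMG00620. That left 55 loci with a value of their own. The chromosome 2 of this ecotype is known to carry a large insertion of mitochondrial DNA near its centromere. RefSeq annotates 19 of the 33 chromosome 2 partners as pseudogenes, 9 as transfer RNAs and 5 as protein-coding. For a shared value the nuclear copy and the mitochondrial locus cannot be told apart. A partner here means a probe set with equal values, and no sequences were compared. A locus without a partner may therefore still have a nuclear copy.

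The 59 loci without a nuclear partner had a median mean log2 signal of 7.68, and the 33 with one had 7.91. The other 74 probe sets with identifiers from AT2G07500 upwards in that stretch of locus numbers had per-array medians of 7.16 to 7.34 in bdl and 6.51 to 7.45 in wild type.

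None of the 92 mitochondrial loci passed the test of bdl against wild type by limma, a linear model fitted to all probe sets, with Benjamini-Hochberg adjustment over all 27826 and a threshold of 0.05. Over all probe sets 1.76% passed, 0.902% higher and 0.859% lower in bdl. At an unadjusted p under 0.05 there were 4 mitochondrial loci, 2 higher and 2 lower in bdl, or 4.35% of them, where 10.7% of all probe sets reached that level, 5.93% higher and 4.78% lower. The median log2 difference, bdl minus wild type, was 0.12 over the 92 loci and -0.01 over all probe sets. Of the 92, 60 were above 0 and 32 below, that is 65.2% above, against 48.3% of all probe sets. The differences ran from -1.22 to 1.27, with the middle 50% of loci between -0.08 and 0.28.

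The loci at both ends of that span were picked after their values were seen. ATMG00880 had 6.84, 9.38 and 5.86 in bdl, against 5.13, 5.94, 7.25 and 6.05 in wild type and a difference of 1.27, with bdl 2 far above every other array. ATMG01290 had 2.38, 3.65 and 5.89 in bdl, against 4.58, 5.12, 5.96 and 5.09 in wild type, with a difference of -1.22. In both loci the bdl arrays differed among themselves by more than the genotype means did, and neither had an unadjusted p under 0.05 by limma.

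The median of 0.12 rested on 1 wild-type array. Without wild type 4 it was -0.03, with 40 of the 92 loci above 0, and it was 0.07 to 0.18 when any one of the other arrays was left out.

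**Figure D1:**
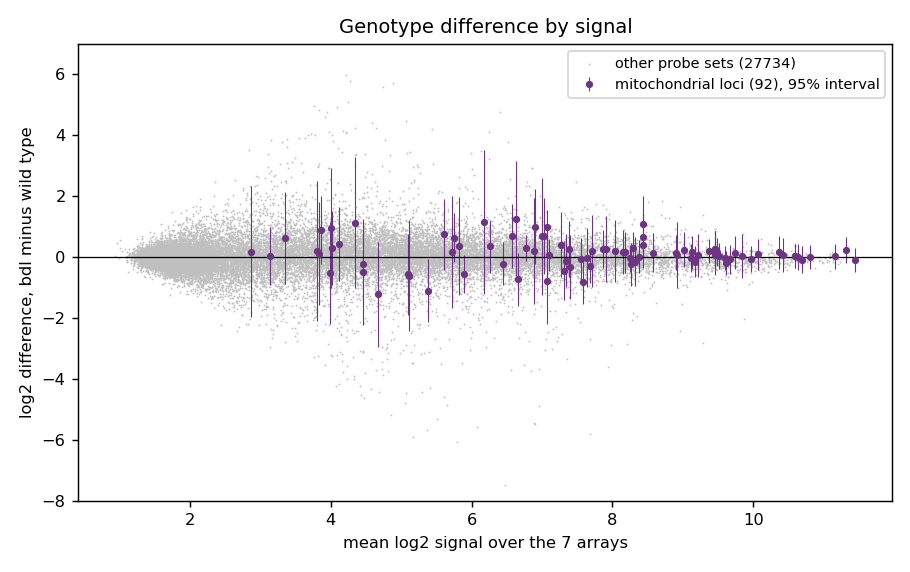
Log2 difference, bdl minus wild type (vertical axis), against the mean log2 signal over the 7 arrays (horizontal axis). Purple points are the 92 mitochondrial loci with 95% intervals from limma, and grey points are the other 27734 probe sets. The mitochondrial loci lie between -1.22 and 1.27, and their intervals narrow toward high signal.

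What the test could have seen depended on the locus. The 95% interval of the log2 difference lay wholly between -1 and 1, a 2-fold change either way, for 48 of the 92 loci (52.2%, against 59% of all probe sets), and between -0.5 and 0.5 for 11. For the other 44 the interval reached a 2-fold difference or beyond, so these arrays could not show whether a change of that size was there. The median SE of a difference was 0.32 for mitochondrial loci and 0.27 for all probe sets.

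The locus nearest to a call was ATMG00840, which has no partner elsewhere on the array. It had 7.49, 7.98 and 7.45 in bdl, against 6.21, 6.57, 6.88 and 6.88 in wild type. All bdl arrays lay above all wild-type arrays. The log2 difference was 1.01 ± 0.24 (SE; limma, unadjusted p = 0.00322, adjusted p = 0.113), with a 95% interval of 0.45 to 1.56, and it did not pass.

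ATMG00350 had 9.64, 9.38 and 8.14 in bdl, against 7.53, 8.36, 8.32 and 7.62 in wild type. Its bdl 3 lay inside the wild-type range, so the genotypes overlapped. The difference was 1.10 ± 0.40 (SE; limma, adjusted p = 0.354). Its values are those of AT2G07762, which RefSeq annotates as a transfer RNA.

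ATMG00730 had 6.57, 7.06 and 7.71 in bdl, against 7.71, 7.98, 8.37 and 7.69 in wild type. Only bdl 3 reached the wild-type range. The difference was -0.82 ± 0.31 (SE; limma, adjusted p = 0.365), and the locus has no partner elsewhere on the array.

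ATMG00750 had 4.93, 4.95 and 4.39 in bdl, against 6.49, 6.40, 5.93 and 4.62 in wild type. Wild types 1 to 3 stood above every bdl array, while wild type 4 lay among them. The difference was -1.10 ± 0.45 (SE; limma, adjusted p = 0.426). Without wild type 4 it was -1.52 ± 0.26 (SE; limma, adjusted p = 0.0474), the sole mitochondrial call in any omission of an array. This locus shares its values with AT2G07686, a pseudogene in RefSeq.

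ATMG01260 had 8.87, 9.09 and 8.50 in bdl, against 7.80, 8.89, 8.30 and 7.62 in wild type. Wild type 2 overlapped with bdl. The difference was 0.67 ± 0.33 (SE; limma, adjusted p = 0.538), and the values are shared with AT2G07813, a transcribed pseudogene. The arrays of the genotypes failed to overlap for 2 mitochondrial loci (2.17%), where 11.2% of all probe sets were so separated, 5.71% with bdl higher and 5.53% with bdl lower. Both loci were higher in bdl. Beside ATMG00840 it was ATMG00820, a locus picked after its values were seen, with 0.31 ± 0.18 (SE; limma, adjusted p = 0.63).

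**Figure D2:**
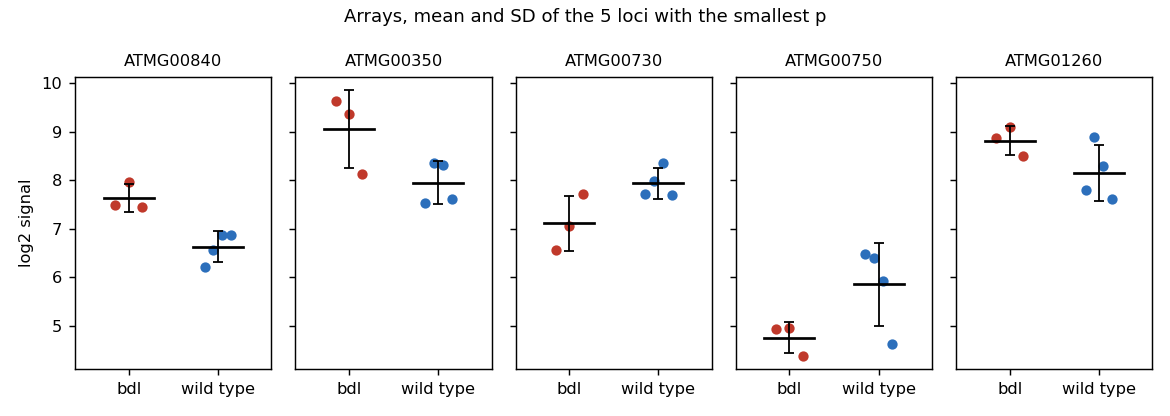
Log2 signal (vertical axis) of the 5 mitochondrial loci with the smallest p, with a point for each array, bdl in red and wild type in blue, the mean as a black bar and the SD as whiskers (3 bdl and 4 wild-type arrays). In ATMG00840 the bdl arrays stand clear of the wild-type arrays, and in the other 4 loci at least 1 array lies inside the range of the other genotype.

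Mitochondrial loci were low in wild type 4. Their median log2 signal was 7.92, 8.01 and 8.01 in bdl arrays 1 to 3, against 7.80, 8.17, 8.15 and 7.51 in wild-type arrays 1 to 4. The bdl arrays lay inside the wild-type range, and wild type 4 lay below all others. This held for the 30 loci with a mean of 9 or more, the 40 between 6 and 9 and the 22 under 6, whose lowest array medians were 9.48, 7.34 and 3.89, each in wild type 4. Set against the average of wild types 1 to 3, 79 of the 92 loci were lower in wild type 4. The median gap was -0.48 on the log2 scale, and 0.01 over all probe sets. There 64 of the 92 loci (and 23.7% of all probe sets) were below each of the other wild-type arrays, and 23 loci were lower by at least 1 on the log2 scale (4.55% of all probe sets).

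**Figure D3:**
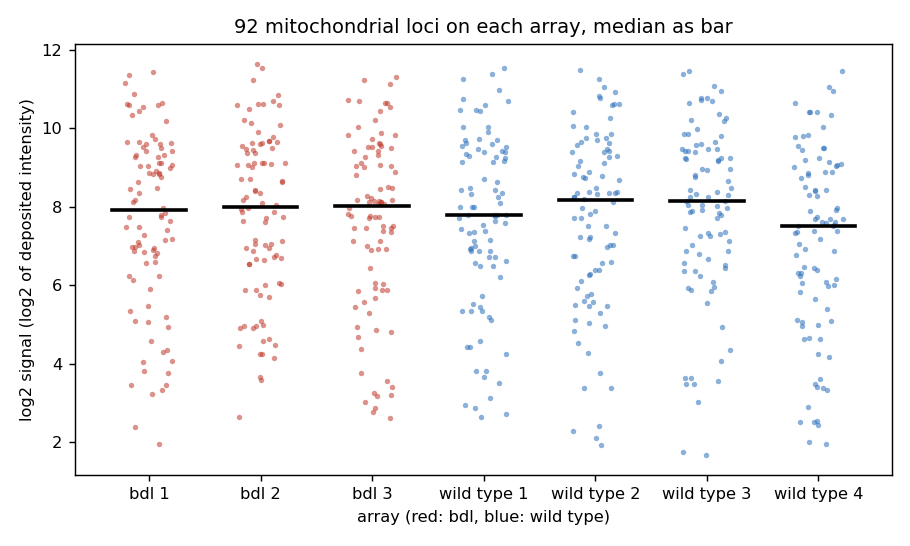
Log2 signal (vertical axis) of the 92 mitochondrial loci on each of the 7 arrays (horizontal axis), with the median as a black bar, bdl in red and wild type in blue. The median is 7.51 in wild type 4 and between 7.80 and 8.17 on the other 6 arrays.

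The same array was low when signals were rescaled. With array medians centred the median of wild type 4 minus the other wild-type arrays was -0.53, after quantile normalization -0.39 and after cyclic loess -0.38. Loci without a nuclear partner had their lowest array median there, 7.51, against 7.80 to 8.16 on the other arrays. Those with one had 7.51 there and nearly the same, 7.53, in wild type 1, against 8.02 to 8.36 on the rest. Across all 7 arrays wild type 4 held the lowest value of 53 loci, 34 of them without a nuclear partner, and no other array held more than 12.

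The locus with the greatest SD within genotype was ATMG01250. It had 7.03, 6.54 and 6.91 in bdl, against 6.87, 6.75, 6.67 and 2.45 in wild type, the widest range over the arrays (4.58) of any mitochondrial locus. Apart from wild type 4 its arrays lay within 0.49 of each other. ATMG00450 and ATMG01230, the loci with the next greatest SD within genotype, were high in wild type 3 instead. ATMG00450 had 3.76, 4.99 and 3.03 in bdl, against 3.80, 2.11, 6.43 and 2.55 in wild type. ATMG01230 had 4.35, 5.69 and 4.93 in bdl, against 3.67, 2.29, 6.58 and 2.89 in wild type. In both, wild type 3 was the highest array, bdl 2 the next and wild type 2 the lowest.

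**Figure D4:**
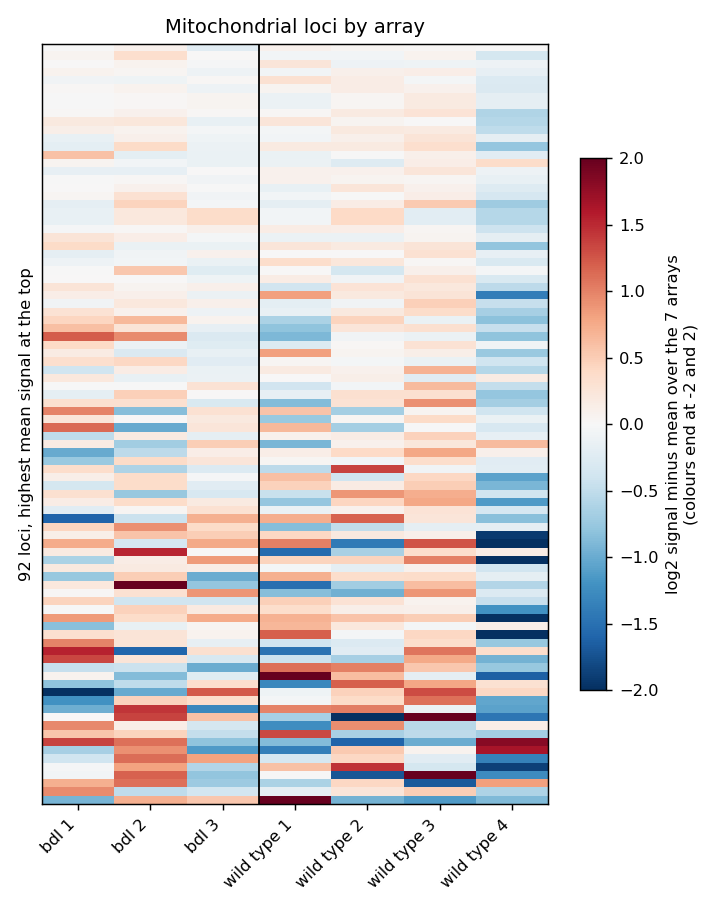
The 92 mitochondrial loci (rows, highest mean signal at the top) on the 7 arrays (columns, bdl left of the line and wild type right of it), coloured by log2 signal minus the locus mean over the 7 arrays. The column of wild type 4 is blue over most of its length, and deviations widen toward the dim loci at the bottom.

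Other sets moved with that array. Plastid loci (14 probe sets) had medians of 8.40 to 8.58 in bdl, against 8.42 to 9.21 in wild types 1 to 3 and 7.65 in wild type 4. The 74 chromosome 2 probe sets without a mitochondrial partner were also lowest there, with a median of 6.51. They lie in the stretch of locus numbers that holds the partners, and no sequences were compared. Whether their signals are separate from those of the mitochondrial loci is therefore not known. The 11 pollen markers had a mean of 2.08 to 3.40 in bdl, against 2.05 to 4.11 in wild type, and 4.11 was wild type 4. Of the 11, 7 had their highest value in wild type 4, and 2 had it in bdl 2, the array with the next highest mean. The 8 endosperm markers had medians of 1.73 to 2.02 in bdl and 1.71 to 2.07 in wild type, and the 9 seed coat markers 2.05 to 2.74 in bdl and 1.85 to 2.30 in wild type. Of these markers, 6 of 8 and 6 of 9 had a mean below the median of all probe sets. SUC5, in the endosperm list, had 6.43 to 7.53 in bdl and 7.46 to 8.32 in wild type. STK, in the seed coat list, had 2.38 to 4.01 and 4.34 to 5.43. Neither list had a call by limma. An unadjusted p under 0.05 was reached by 2 endosperm and 3 seed coat markers, and by 10.7% of all probe sets. Of those markers, SUC5, EDE1, STK and TT2 were lower in bdl and TT1 higher. For both lists wild type 4 was the lowest wild-type array by the mean (2.86 for endosperm and 2.69 for seed coat) but not by the median. What part any of these had in the low mitochondrial signals was not tested. In whole-embryo RNA fewer mitochondria or fewer cells of a type and less RNA per mitochondrion cannot be told apart.

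The arrays carried embryo transcripts. WOX2, a homeobox gene of the early apical lineage, had 9.84 to 10.08 in bdl and 9.82 to 10.32 in wild type, and LEC1, an embryo regulator, had 8.87 to 9.29 in bdl and 8.27 to 8.76 in wild type. Of the 8 embryo markers 3 were lower in bdl by limma, PDF1, an epidermal gene, among them (log2 difference -2.83, adjusted p = 0.000318), and 5 did not pass. Over all probe sets 0.859% were lower in bdl by this test.

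Arrays of one genotype differed more in most mitochondrial loci than in the median probe set of like signal, as a description with no test. The SD within genotype (pooled over both) was above the median of the other probe sets in the same signal range for 75 of the 92 loci, and above their upper quartile for 61. Between log2 signals of 6 and 8 the 26 mitochondrial loci had a median SD of 0.65, where 3902 other probe sets had 0.33. From 9 to 10 the medians were 0.22 for 19 loci and 0.18 for 460 others, and from 10 to 12 they were 0.16 for 11 loci and 0.13 for 184 others. Without wild type 4 the gap above 9 turned round, with 0.15 for mitochondrial loci and 0.16 for the others from 9 to 10, and 0.11 and 0.12 from 10 to 12. Below 9 the mitochondrial median was the higher in all 4 ranges without that array too, with 0.52 and 0.32 between 6 and 8.

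**Figure D5:**
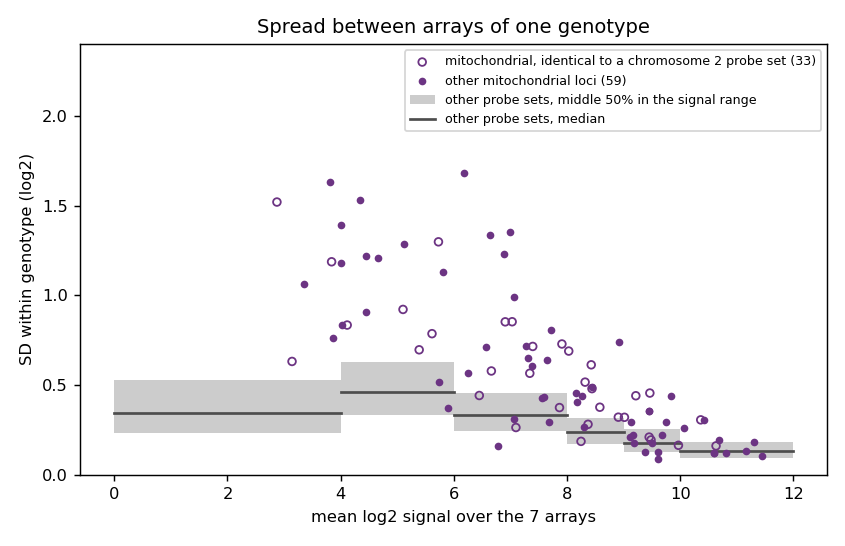
SD of log2 signal within genotype (vertical axis) against mean log2 signal (horizontal axis) for mitochondrial loci with a chromosome 2 partner (open circles, 33) and the others (filled circles, 59). Grey bands hold the middle 50% of the other probe sets in each signal range and dark lines their median, and 61 of the 92 loci lie above the band.

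Without wild type 4, 63 loci stood above the median of the others and 50 above their upper quartile. The median SD of the mitochondrial loci was 0.32 among bdl arrays and 0.50 among wild-type arrays, and 0.33 among wild types 1 to 3. Loci without a nuclear partner had a median SD of 0.44 and those with one 0.52.

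Some loci were steady nonetheless. In 13 of the 92 the arrays differed by less than 0.5 on the log2 scale, and ATMG00580 had the smallest range, 0.24, with 9.59, 9.63 and 9.53 in bdl, against 9.69, 9.66, 9.64 and 9.45 in wild type. Its log2 difference was -0.03 (95% interval -0.41 to 0.35). In 29 loci the arrays differed by more than 2, which is 4-fold, and in 15 by more than 3. Among all probe sets 14.9% and 4.60% had such ranges. A range above 0.5 was seen in 79 of the 92 loci and in 90.3% of all probe sets.

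Certain loci had nearly parallel profiles over the arrays without having the same values. Pairs were ranked by the greatest difference between their mean-centred profiles over the 7 arrays, relative to the smaller of their ranges, after the values were seen. The closest pair was ATMG00310 and ATMG00320, consecutive by identifier among the loci measured. ATMG00310 had 8.91, 7.05 and 8.22 in bdl, against 8.48, 7.23, 7.96 and 7.51 in wild type, and ATMG00320 had 8.85, 6.71 and 7.96 in bdl, against 8.36, 7.03, 7.70 and 7.40 in wild type. After centring they never differed by more than 0.15. ATMG00310 shares its values with AT2G07737, and ATMG00320 has no partner elsewhere on the array. The next pair was ATMG00510 and ATMG01190, which are 46 steps apart by identifier and never differed by more than 0.075. ATMG00510, which shares its values with AT2G07709, had 9.53, 9.79 and 9.42 in bdl, against 9.43, 9.47, 9.61 and 9.14 in wild type. Of the 12 closest pairs 2 were consecutive, the other being ATMG01060 and ATMG01070. ATMG01070 shares its values with AT2G07743. These 7 arrays are few, and the likeness is a description only.

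Nuclear genes for the respiratory complexes, alternative respiration and mitochondrial genome expression and upkeep also gave no call. The 7 lists of nuclear-encoded genes held 93 genes, and 0 passed by limma in either direction, with 6 at an unadjusted p under 0.05 (6.45% of them, beside the 10.7% over all probe sets). The median log2 difference over the 93 was 0.08. By list it was 0.08 for 15 complex I genes, -0.12 for 6 complex II genes, 0.17 for 11 genes of complex III and cytochrome c, -0.06 for 8 of complex IV, 0.09 for 9 of complex V, 0.01 for 12 of alternative respiration and 0.05 for 32 of mitochondrial genome expression and upkeep.

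The genes with the smallest p in these lists did not pass either. In the complex I list AT5G11770 had a difference of 0.49 ± 0.17 (SE; limma, adjusted p = 0.294), with 9.17 to 9.38 in bdl and 8.68 to 8.82 in wild type, and MTACP-1, a mitochondrial acyl carrier protein gene, had -0.56 (adjusted p = 0.473). SDH2-3 and SDH3-1, genes for succinate dehydrogenase subunits, had -0.34 and -0.50. AT3G27240 and the cytochrome c gene CYTC-2 had 0.48 and 0.36. In the complex IV list COX17, a copper chaperone gene, had -0.24 and AT1G02410 -0.20, and in the complex V list AT5G08680 had 0.28 and AT1G51650 0.21. Of the alternative NAD(P)H dehydrogenase genes NDC1 had -0.65 ± 0.20 (SE; limma, adjusted p = 0.228) and NDA1 0.61. NDA1 was dim too, at 1.49 to 2.87 over the arrays. BIR6, a gene of mitochondrial intron splicing, had 0.85 ± 0.33 (SE; limma, adjusted p = 0.41), and AT4G31010, given as mitochondrial CAF-like splicing factor 1 in RefSeq, had 0.73.

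By their medians, the lists of complex I, complex V and mitochondrial genome expression and upkeep were also lowest in wild type 4. The complex I median was 8.17 to 8.29 in bdl, against 8.31 to 8.34 in wild types 1 to 3 and 7.91 in wild type 4. For complex V it was 8.75 in wild type 4, with 8.82 in wild type 1 the next lowest. For genome expression and upkeep it was 5.15 in wild type 4, with 5.18 in bdl 1 the next lowest. The complex IV list did not share this by the median, with 8.22 to 8.71 in bdl and 8.45 to 8.72 in wild type, where wild type 4 was at 8.66. The lists of complex II, of complex III and cytochrome c, and of alternative respiration also had their lowest median on another array. Means gave another picture for some lists. For complex III and cytochrome c the mean was lowest in wild type 4, at 7.38, against 7.70 to 7.81 in bdl. For complex IV wild type 4 had the lowest wild-type mean, 8.35, but bdl went down to 8.31. For genome expression and upkeep its mean was 5.16, and another wild-type array had 5.13. The median over all 93 genes was 6.34 to 6.85 in bdl, against 6.34 to 6.59 in wild types 1 to 3 and 6.23 in wild type 4.

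None of the 14 plastid loci passed by limma, and 1 (7.14%) had an unadjusted p under 0.05, where 1.76% and 10.7% of all probe sets did so. Their median log2 difference was 0.09, with 10 of 14 above 0, next to 0.12 and 60 of 92 for the mitochondrial loci. Whether the organelles differ in this was not tested.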

How the data were processed

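The authors deposited a single table of intensity values, one for every probe set on each array. Per the submitters' processing notes RMA was used, with no version. Which chip definition and which build were used is not given in the sources used here. Values were all above 0 on a linear scale, so log2 was taken with no pseudocount and no further scaling. The bdl and wild-type arrays were set against each other by limma (version 3.58.1, under R 4.3.3), with a model of genotype alone and eBayes without trend (2-sided, Benjamini-Hochberg over all 27826 probe sets, call at an adjusted p under 0.05). The procedure was tested on simulated data. The number of arrays limits the precision. The mitochondrial loci and the gene lists were chosen with earlier results of these data known, so scores over the loci carry no p. Loci were named by rule: every call, the 5 with the smallest p, the 3 highest and 3 lowest by mean, and the 3 with the greatest SD within genotype. From each nuclear list came its calls or the 2 genes with the smallest p. Other names were chosen after values were seen. Respiratory, ribosomal and transfer RNA groups, also provided for, could not be made. Symbols came from the RefSeq table of TAIR10.1, used for names only. Identity of probe sets means equal values on all 7 arrays as deposited. Alternatives were other scalings, filters on dim probe sets, log2 of intensity plus 1, array weights, a trended and robust variance, a block for replicate number, identical probe sets counted once, and leaving out each array. Leaving out loci with a nuclear or plastid partner was added after the data were examined. Figures were drawn with matplotlib 3.10.9.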

Additional observations from a re-analysis of the deposited data

Results flagged for a closer look

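Wild-type arrays were checked for 1 array standing apart from the other 3, by its gap relative to the range, over 35 values (the 14 named mitochondrial loci and 21 set medians). This was so for 5 of them, and the 3 bdl arrays are too few for the check. Chance flags about 1 group in 20, but no rate can be read from these 5, since some loci were named for a great SD or an extreme mean and the sets share members. ATMG01250 had a log2 signal of 2.45 in wild type 4, against 6.67 to 6.87 in wild types 1 to 3. ATMG01310, which shares its values with AT2G07691, had 5.52 in wild type 1, against 1.74 to 2.0 in the others. ATMG00360 had 11.40 in wild type 1, against 11.06 to 11.08. The median of the nuclear-encoded complex I list was 7.91 in wild type 4, against 8.31 to 8.34. The median of the list of complex III and cytochrome c was 8.12 in wild type 2, against 7.89 to 7.92. Over all 92 mitochondrial loci 8 had such an array (8.70%, against 6.79% of all probe sets), and in 5 of the 8 it was wild type 4 on the low side.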

How the results depend on the processing

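None of the 92 mitochondrial loci was called by limma in 18 of 19 alternatives, and 1 was without wild type 4, so that over the omissions of an array the count ran from 0 to 1. The median log2 difference of these loci was -0.03 to 0.18 over the omissions and -0.03 to 0.16 over the other alternatives. Each value was less than 0.24 from the main value of 0.12, where 0.24 is the SD of array medians pooled over genotypes. That SD was 0.05 in bdl and 0.31 in wild type, which includes wild type 4, so the limit is wide. The median difference changed sign without wild type 4 and with the replicate number as a block. That block takes nothing from wild type 4, which has no same-numbered bdl array. ATMG00840 kept its direction in all 19 alternatives (0.84 to 1.10; limma, adjusted p = 0.0775 to 0.37), the other 4 loci with the smallest p kept theirs wherever they were fitted, and ATMG00750 passed only without wild type 4 (-1.52). Over all probe sets 490 passed, 278 to 374 without any one array and 188 with the replicate block. Same-numbered deviations from the genotype means correlated at 0.036 to 0.047 across probe sets, and the others at -0.079 to 0.105. Among wild types 1 to 3 the same-numbered array had the highest correlation for each bdl array. Deviations from means of so few arrays depend on each other, so these values cannot decide whether numbers pair the arrays. Of the mitochondrial loci, 7 (7.61%) had an unadjusted p under 0.05 with the block, against 10.5% of all probe sets. Dim loci and shared probe sets limit what can be said of single loci.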
